A study of Mus musculus with 4 samples.

Results

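A set of 9 genes of the interferon pathway was examined in 3T3-L1 preadipocytes. The genes were Stat2, the interferon regulatory factors Irf1, Irf3, Irf5, Irf7 and Irf9, and the effectors Isg15, Bst2 and Ifit1. They were chosen by gene symbol from the authors' deposited table, which held 16709 symbols, and all 9 were found. 3T3-L1 cells are mouse fibroblasts able to become fat cells in culture, and they were used here as preadipocytes, grown in DMEM with serum. The treated group received 25 µM Nutlin-3a, dissolved in DMSO, for 24 h, and the other received an equal amount of DMSO. The compound blocks the pocket of MDM2 that binds p53, and p53 is thereby stabilized. Each group had 2 biological replicates, and messenger levels were read by RNA sequencing. No engineered allele is named by the labels, and all libraries came from this 1 line.

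Type I interferon binds the receptor IFNAR, whose kinases JAK1 and TYK2 phosphorylate STAT2. STAT2 and IRF9 belong to the complex ISGF3, which binds the interferon-stimulated response element (ISRE) in promoters of interferon-stimulated genes. Interferon gamma instead acts through gamma-activated sites, for example in the Irf1 promoter. IRF3 and IRF7 act earlier, downstream of nucleic acid sensors, and switch on interferon genes themselves. Irf5, Irf9 and Isg15 have each been described as p53-responsive genes, and the comparison gives their levels with p53 stabilized.

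The table gave 1 value per transcript and group, in FPKM (fragments for each kilobase of transcript, relative to the mapped total). No library had a value of its own, so no difference below could be set against the spread between replicates, no test was possible, and higher and lower describe the authors' group values. Transcripts were summed per gene. Log2 ratios are Nutlin-3a over DMSO on the log2(FPKM + 1) scale, and folds are plain ratios of FPKM. A pair of values joined by "against" gives Nutlin-3a first. All 9 genes were among the 10331 compared, which had a mean of at least 1 FPKM and a value above 0 in each group. Known p53 targets were listed higher in the same column: Cdkn1a, the p21 gene, had 386 FPKM with Nutlin-3a and 35.2 FPKM with DMSO. Ccng1, Ppm1d, Trp53inp1 and Gdf15 had log2 ratios from 1.87 to 3.44, and Trp53 itself had 63.1 and 54.5 FPKM.

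On the log2(FPKM + 1) scale none of the 9 genes differed 2-fold between the groups, although Irf7 had a plain fold of 2.18. For comparison, 12.8% of all genes compared passed 2-fold on that scale, 6.62% higher and 6.14% lower in Nutlin-3a. At 1.5-fold, Ifit1 and Irf7 did, against 33% of all genes compared. Ratios of the 9 ran from -0.82 for Irf7 to 0.62 for Ifit1, with a median of -0.16 against 0.07 over all genes compared. Stat2 and Ifit1 were listed higher in Nutlin-3a and the other 7 lower, where 54.8% of all genes compared had a ratio above 0 and 45.2% below. Of those 7, Irf3, Irf5 and Irf9 lay within 0.2 of 0.

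The ratios moved with base composition. Across 9935 genes, which are not independent replicates, ratio and GC content of the transcript had a Spearman rho of -0.22. The transcripts of 8 of the 9 genes had a GC content between 50.4% and 56.7%, and that of Ifit1 had 43.3%. After a correction for this trend, Irf3 (0.031) and Irf5 (0.0047) lay marginally above 0, which left 5 genes below it. The corrected ratios were -0.70 for Irf7, -0.44 for Bst2, -0.43 for Irf1, -0.19 for Isg15, 0.49 for Ifit1 and 0.57 for Stat2.

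**Figure D1:**
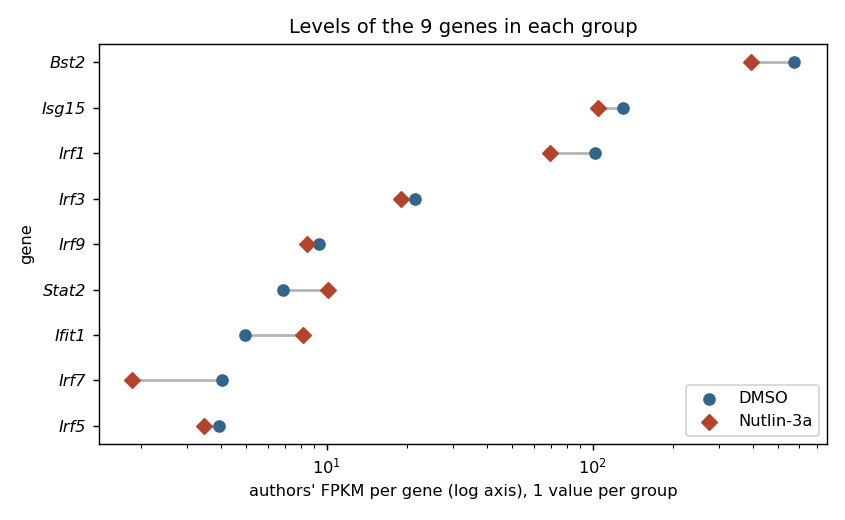
FPKM of each gene in DMSO (circles) and Nutlin-3a (diamonds) on a log axis, with 1 group value each and therefore no error bars. Levels span from Irf5 and Irf7, under 5 FPKM, to Bst2, at 394.7 and 574 FPKM, and the widest gap between the groups on this axis is that of Irf7.

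Interferon-responsive promoters are known for short elements close to the transcript start, and these were looked for in the 9 genes. RefSeq promoter windows (GRCm38.p6, 250 bases before to 50 after a transcript start) were found for all 9 genes, 11 windows in all because Irf1 and Irf9 have 2 starts each. The ISRE core was searched as GAAANNGAA on both strands and was present in 4 of the 9 genes, Stat2, Isg15, Bst2 and Ifit1, against 8.56% of all 32851 windows. The gamma-activated site, searched as TTCNNNGAA, was present in Irf1 and Bst2 and in 8.3% of all windows. No window of the 9 genes held the p53 half-site consensus, which 8.36% of all windows did. A match is a description of letters, and a missing match says only that they are not in this window.

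The stretches below are shown because they carry those matches. Each runs 5′ to 3′ along the gene's own strand, with ISRE cores in capitals in the first 4 and the gamma-activated site in capitals in Irf1.
Isg15, chr4:156200819-156200968, minus strand: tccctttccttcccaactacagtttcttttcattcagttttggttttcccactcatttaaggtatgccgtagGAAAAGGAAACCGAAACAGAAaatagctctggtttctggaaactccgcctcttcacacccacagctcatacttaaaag
Bst2, chr8:71537473-71537622, minus strand: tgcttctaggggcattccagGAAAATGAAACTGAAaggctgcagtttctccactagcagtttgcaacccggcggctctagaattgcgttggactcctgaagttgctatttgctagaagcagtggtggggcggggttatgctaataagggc
Ifit1, chr19:34640739-34640888, plus strand: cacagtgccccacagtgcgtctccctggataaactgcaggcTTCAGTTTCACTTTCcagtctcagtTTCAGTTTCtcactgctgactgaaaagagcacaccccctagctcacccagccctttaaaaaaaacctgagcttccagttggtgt
Stat2, chr10:128270248-128270397, plus strand: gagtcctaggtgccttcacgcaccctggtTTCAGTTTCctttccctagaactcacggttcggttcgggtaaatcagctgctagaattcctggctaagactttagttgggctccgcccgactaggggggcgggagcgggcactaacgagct
Irf1, chr11:53769864-53770013, plus strand: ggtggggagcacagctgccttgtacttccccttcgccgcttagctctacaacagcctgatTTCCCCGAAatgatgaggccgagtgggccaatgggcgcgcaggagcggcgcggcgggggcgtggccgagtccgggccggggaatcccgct

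Isg15 carried 3 overlapping cores between positions -78 and -58 from its start, and Bst2 had 2 overlapping ones between -130 and -116. The gamma-activated site of Bst2, from -136 to -128, overlapped the first of them. Ifit1 held 3 cores on the opposite strand, 2 overlapping from -109 to -95 and another from -84 to -76. Stat2 had a single core farther upstream, from -221 to -213, and the site of Irf1 lay from -90 to -82. The 4 genes with a core did not share a direction: Ifit1 and Stat2 were listed higher in Nutlin-3a, Isg15 and Bst2 lower. Across the 7962 genes compared that had a window, the 656 with a core had a median log2 ratio of 0.06 and the others 0.08. The 644 with a gamma-activated site had a median of -0.003 and the others 0.08, with 50.5% and 44.5% below 0. For the p53 half-site the medians were 0.09 with it and 0.07 without. Whether these differences exceed the spread was not tested.

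**Figure D2:**
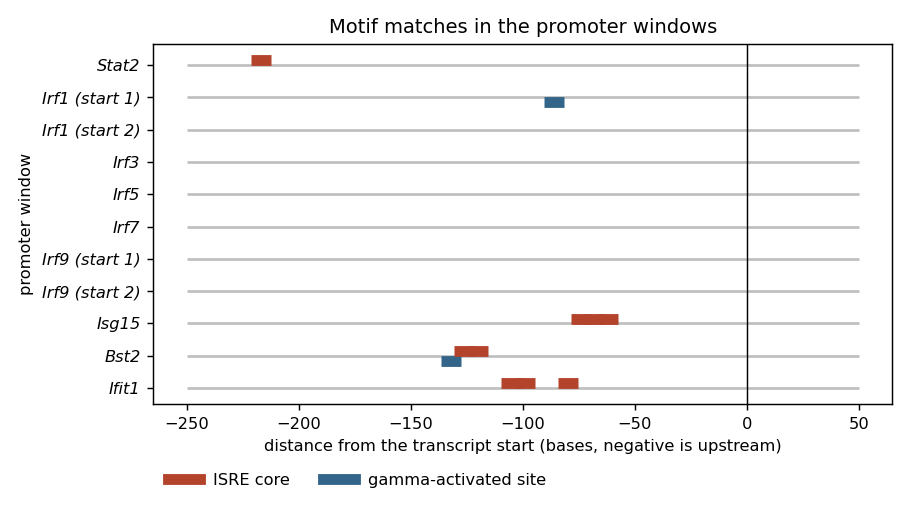
Positions of ISRE cores (red) and gamma-activated sites (blue) in the 11 promoter windows, drawn to scale from 250 bases upstream to 50 downstream of the transcript start at 0. Cores sit in Stat2, Isg15, Bst2 and Ifit1, and the windows of Irf3, Irf5, Irf7 and Irf9 hold neither motif.

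Stat2 encodes the STAT protein that is specific to interferon type I and III signalling. Its gene model was listed on chromosome 10 from 128270576 to 128292849 (mm10, as for the other gene positions here). From a single transcript, it had 10.1 FPKM with Nutlin-3a and 6.85 FPKM with DMSO, 1.47-fold higher. Of all genes compared, 21.9% had a ratio at least as high as its 0.50. Irf9, its partner in ISGF3, was slightly lower, so Stat2 stood at 1.2 times the level of Irf9 in Nutlin-3a and at 0.729 times in DMSO.

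Irf9, the DNA-binding subunit of ISGF3, lies on chromosome 14 from 55603985 to 55610030. Its level was 8.43 FPKM with Nutlin-3a and 9.39 FPKM with DMSO, and its log2 ratio of -0.14 was reached or passed on the lower side by 35.9% of all genes compared. Nearly all of this came from 1 of 3 listed transcripts, which held 95.5% of the gene in Nutlin-3a and practically all of it in DMSO. A second transcript had 0.38 against 0.00022 FPKM, a level near 0 at which no fold is read.

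Irf1, an early interferon gamma response gene that activates antigen presentation and antiviral genes, was the most abundant of the 5 regulatory factors. The gene, on chromosome 11 from 53770014 to 53778374, had 69.3 FPKM with Nutlin-3a and 102 FPKM with DMSO, 1.47-fold lower, with a log2 ratio of -0.55. On the lower side, 16% of all genes compared went at least as far. Its 4 transcripts split. The main one had 61.3 against 99.8 FPKM, whereas the other 3 together had 8.0 against 2.34 FPKM, or 11.5% and 2.3% of the gene. The largest difference among these 3 was in a transcript that the authors' table marks with class code j, the code for a splice form that shares a junction with the annotation, at 3.96 against 0.379 FPKM. The remaining ones had 3.56 against 1.7 FPKM and 0.481 against 0.268 FPKM. With the main transcript alone standing for the gene, the ratio was -0.69.

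Irf3 encodes the constitutively made factor that waits in the cytoplasm until the kinase TBK1 phosphorylates it. On chromosome 7 from 44997648 to 45002848, it had 19.1 FPKM with Nutlin-3a and 21.5 FPKM with DMSO. The ratio of -0.16 was reached on the lower side by 34.7% of all genes compared. Both transcripts kept their shares, the main one at 86.6% and 86.2% of the gene. Its gene model lies 68 bases from that of Bcl2l12 and 101 bases from that of Scaf1. Both of these neighbours were listed lower in Nutlin-3a, Bcl2l12 at 7.85 against 13.1 FPKM and Scaf1 at 7.14 against 11.2 FPKM. Whether reads of these genes enter the Irf3 value was not tested.

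Irf7, which amplifies interferon production and is itself induced by ISGF3, had the lowest ratio of the 9. Its model spans chromosome 7 from 141263183 to 141266424. Its level was 1.85 FPKM with Nutlin-3a and 4.04 FPKM with DMSO, a plain fold of 2.18 lower, but a log2 ratio of -0.82 with the pseudocount. Without a pseudocount it was -1.12 and with a pseudocount of 0.1 it was -1.08, both past 2-fold, so its place relative to the limit depends on this choice. On the scale with a pseudocount of 1, 8.97% of all genes compared were at least as low. The 3 transcripts did not move together: 1.43 against 2.84 FPKM for the most abundant, 9.3e-05 against 1.2 FPKM for another, and 0.426 against 0.0004 FPKM for the last. The latter pair exchanged places between groups, each being close to 0 in 1 group, so the split between them is uncertain. The level of Irf3 was 10.3 times that of Irf7 in Nutlin-3a and 5.31 times in DMSO.

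Irf5, a factor downstream of Toll-like receptors best known from myeloid cells, was weakly expressed. Listed on chromosome 6 from 29526625 to 29537320, it had 3.47 FPKM with Nutlin-3a and 3.94 FPKM with DMSO. Its log2 ratio was -0.14, which 35.6% of all genes compared reached on the lower side, and 1 of its 2 transcripts carried nearly all of the signal. The listed model stops 4549 bases short of the end of the RefSeq gene, so the value covers the listed part. The 5 chosen regulatory factors were thus all on the lower side as deposited, where 45.2% of all genes compared were. Their median was -0.16, and 3 of the 5 were within 0.2 of 0. After the correction for GC content, Irf3 (0.031) and Irf5 (0.0047) lay marginally above 0. Irf2, a regulatory factor outside the chosen set, was listed higher in Nutlin-3a, with a log2 ratio of 0.84.

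**Figure D3:**
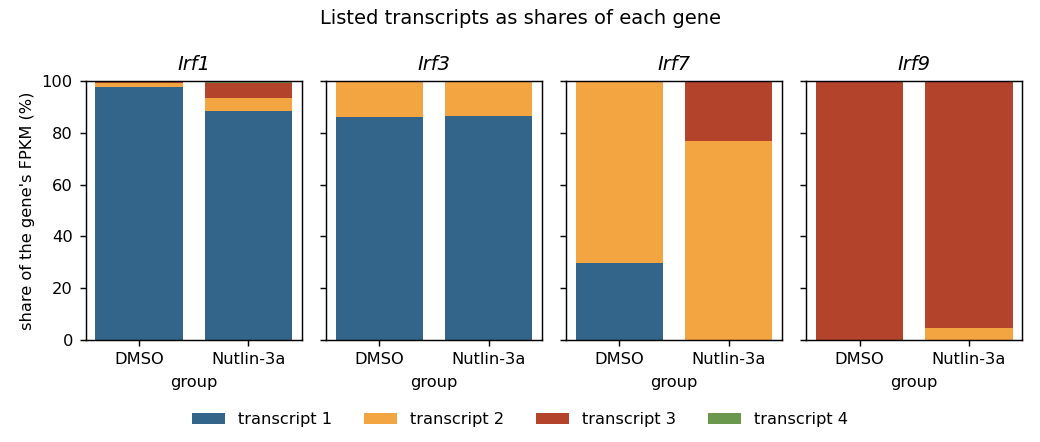
Shares of each gene's FPKM (%) held by its listed transcripts in DMSO and Nutlin-3a, for 4 regulatory factor genes with more than 1 transcript. Irf3 keeps its proportions, the minor transcripts of Irf1 hold 2.3% in DMSO and 11.5% in Nutlin-3a, and in Irf7 a transcript with 29.6% in DMSO is near 0 in Nutlin-3a, where another holds 23.0%.

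The effectors spanned a wide range of levels. Bst2 encodes tetherin, a membrane protein that holds budding virus particles at the cell surface, and was by far the most abundant of the 9. The gene, on chromosome 8 from 71534262 to 71537437, had 394.7 FPKM with Nutlin-3a and 574 FPKM with DMSO, 1.45-fold lower (-0.54). It ranked 278 and 212 among the 16709 symbols and supplied 63.6% and 67.0% of the summed FPKM of the 9 genes. No other gene model of the table lay within 5000 bases of it. On the lower side, 16.6% of all genes compared were at least as far from 0.

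Isg15 encodes a ubiquitin-like protein that is attached to other proteins during the interferon response. Located on chromosome 4 from 156199424 to 156200818, it had 105 FPKM with Nutlin-3a and 130 FPKM with DMSO, a log2 ratio of -0.30, which 26.5% of all genes compared reached on the lower side. Parts of its conjugation pathway showed larger differences. Uba7, the activating enzyme for ISG15, had 1.74 against 8.7 FPKM (-1.82), and Ube2l6, its conjugating enzyme, had 10.0 against 33.1 FPKM (-1.63). The ligase genes were closer to even, with Herc6 at 2.61 against 2.64 FPKM and Trim25 at 6.99 against 8.42 FPKM. Usp18, the protease that removes ISG15 and also restrains the receptor, was listed at 5.46 against 3.59 FPKM (0.49).

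Ifit1 encodes a protein that binds viral RNA lacking the host's cap methylation. On chromosome 19 from 34640889 to 34650009, it had the highest ratio of the 9, with 8.16 FPKM under Nutlin-3a and 4.94 FPKM under DMSO, 1.65-fold higher (0.62). Among all genes compared, 16% had a ratio at least as high. Its relatives in the same family were on the other side, with Ifit2 at 1.67 against 2.24 FPKM, Ifit3 at 10.5 against 11.6 FPKM and Ifit3b at 2.58 against 3.63 FPKM. Members of this family resemble each other in sequence and can share reads, so their separate values are uncertain. Isg15 exceeded Ifit1 by 12.9 times in Nutlin-3a and 26.3 times in DMSO.

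In DMSO the order of levels ran from Bst2 through Isg15, Irf1, Irf3, Irf9, Stat2, Ifit1 and Irf7 down to Irf5. In Nutlin-3a, Stat2 stood above Irf9 and Irf5 above Irf7, while the rest kept their places. Without a value per library it cannot be said which neighbours in this order differ beyond their spread.

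**Figure D4:**
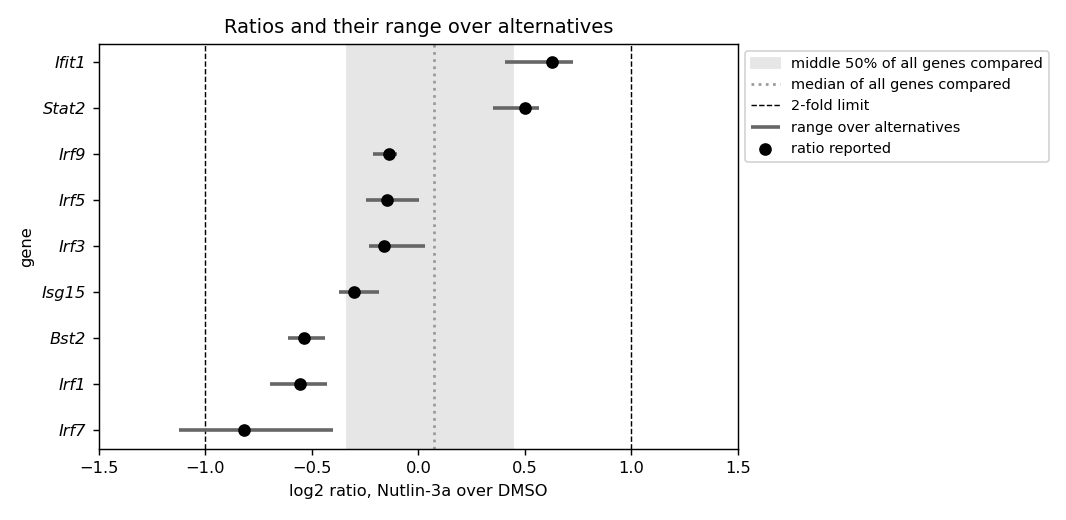
Log2 ratio of Nutlin-3a over DMSO for each gene (points), with the range over up to 11 other ways of processing (bars), the 2-fold limit (dashed) and the middle 50% of all 10331 genes compared (grey band, -0.33 to 0.44). Irf7 is the gene whose bar crosses the limit, and the bars of Irf3 and Irf5 reach 0.

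Around these genes, 99 other genes of the pathway were compared in lists by role. With Nutlin-3a, 3 of them (3.03%) were higher by 2-fold or more and 7 (7.07%) lower, against 6.62% and 6.14% of all genes compared. Ratios below 0 made up 63.6%, where 45.2% of all genes compared were below 0. The median was -0.25, and that of all genes compared was 0.07. This share was not recomputed after the correction for GC content, which moved some of these ratios across 0. Among 9 receptor and kinase genes none passed the limit, where 12.8% of all genes compared did, so the list is too short to read this count. Ifnar2, a subunit of the type I receptor, had 30.1 against 59.1 FPKM (-0.95) and Il10rb, which serves the type III receptor, 5.87 against 12.1 FPKM (-0.93). Jak3 had 7.86 against 3.85 FPKM (0.87) and Jak2 6.06 against 3.63 FPKM (0.61). Ifnar2 passed the limit after centring on the median of all genes (-1.02), as did Il10rb, and Jak3 after the correction for GC content (1.16). Among interferon genes, Ifnb1 had 0.106 FPKM with Nutlin-3a and was listed at 0 with DMSO. Il6, a cytokine placed on the same list, had 1.55 against 0.606 FPKM.

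None of 4 other STAT genes passed the limit, where 12.8% of all genes compared did, so the list is too short to read this count. Stat3, the main factor of interleukin 6 signalling, had 53.8 against 36.1 FPKM (0.57), while Stat5a (7.27 against 12.7 FPKM), Stat5b (5.17 against 7.41 FPKM) and Stat6 (10.8 against 14.8 FPKM) were listed lower. Of the other regulatory factors and their cofactors, Irf2, which competes with Irf1 for the same sites, had 7.59 against 3.81 FPKM (0.84). The level of Irf1 was 9.12 times that of Irf2 in Nutlin-3a and 26.8 times in DMSO. Irf2bp2, an Irf2-binding corepressor gene, had 31.5 against 16.3 FPKM (0.91) and passed the limit after the correction for GC content (1.05). Irf2bp1 and Irf2bpl had ratios of 0.04 and 0.05, which turned negative when centred on the median of all genes (-0.03 and -0.02). After the correction for GC content they were 0.35 and 0.29. Irf4 and Irf8, which mark lymphoid and myeloid cells, were both under 0.05 FPKM.

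Of 13 sensor and adaptor genes, 10 had a ratio below 0, against 45.2% of all genes compared, and 2 were at least 2-fold lower, against 6.14%. The median was -0.44, and Traf3 was among those below 0 (-0.0012) but above it after the correction for GC content (0.098). Past the limit were Zbp1, a sensor of Z-form nucleic acid, at 3.99 against 16.4 FPKM (-1.80), and Dhx58, a regulator of RIG-I-like sensors, at 2.19 against 5.81 FPKM (-1.09). Dhx58 lay inside the limit after the correction for GC content (-0.93). Ticam1, the adaptor of Toll-like receptor 3, had 4.33 against 8.58 FPKM, and Ikbke, a kinase that phosphorylates IRF3 and IRF7, 6.17 against 11.1 FPKM.

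A list of inhibitors of interferon signalling had 14 genes compared, of which not all, for example Isg20l2 (-0.34), are known inhibitors. Of the 14, 10 had a ratio above 0, against 54.8% of all genes compared, and 2 were at least 2-fold higher, against 6.62%. Their median was 0.46, and Pias2 was among those above 0 (0.13) but below it after the correction for GC content (-0.049). The 2 past the limit were Pias3, an inhibitor of STAT3, at 18.8 against 6.09 FPKM (1.48), and Socs3, a feedback inhibitor of cytokine receptors, at 85.9 against 34.4 FPKM (1.30). Ptpn1, a phosphatase that acts on JAK kinases, had 16.0 against 7.6 FPKM and lay just inside the limit (0.98). Socs1, a feedback inhibitor of interferon and other cytokine receptors, had 4.45 against 9.46 FPKM (-0.94). Both moved past the limit with a pseudocount of 0.1. After the correction for GC content Ptpn1 was past it (1.15), whereas Socs1 lay farther inside (-0.69).

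Among 51 other effector genes, 38 had a ratio below 0, against 45.2% of all genes compared. At least 2-fold lower were 4 of them and at least 2-fold higher was 1, against 6.14% and 6.62% of all genes compared, and the median was -0.30. The 4 were Ube2l6, the lysosomal reductase gene Ifi30 (30.0 against 69.9 FPKM), the GTPase gene Ifi47 (4.56 against 11.2 FPKM) and Lgals9, the galectin-9 gene (18.5 against 39.2 FPKM). With a pseudocount of 5, Ifi47 and Lgals9 lay inside the limit (-0.76 and -0.91). Isg20, an exonuclease gene, was the higher one, at 30.4 against 7.66 FPKM (1.86). The guanylate-binding genes Gbp2, Gbp3, Gbp4, Gbp6 and Gbp7 all had ratios below 0, from -0.79 to -0.02, the last being Gbp7 at 1.27 against 1.3 FPKM. Taken with related GTPase genes of the list, 9 of 10 were below 0. The exception was Irgm1, at 18.2 against 12.8 FPKM (0.48). In the whole list 13 genes had a ratio above 0. The list contains the abundant membrane protein gene Ifitm3, at 1520 against 1294 FPKM.

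**Figure D5:**
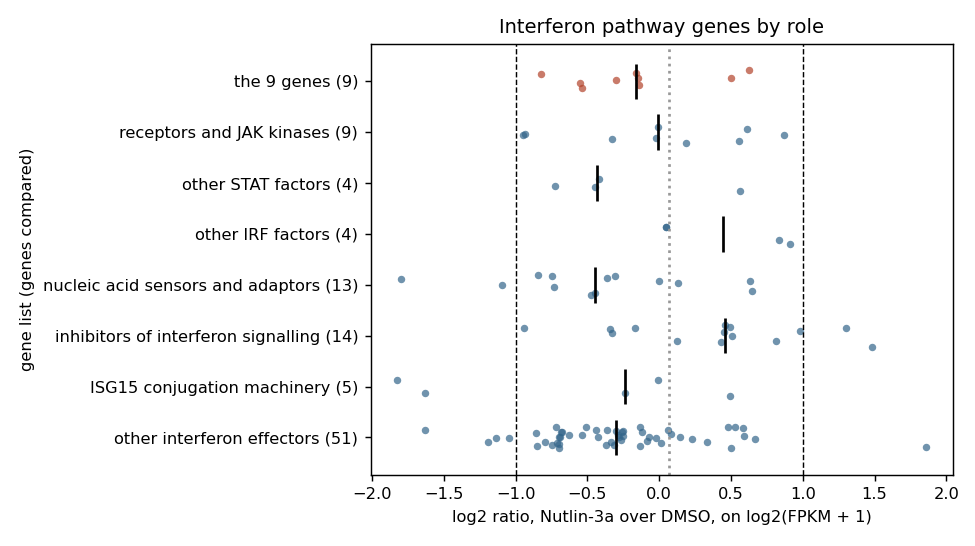
Log2 ratio of each compared gene by list, 1 point per gene with a bar at the median, the number of genes in brackets, the 2-fold limit dashed and the median of all genes compared dotted. The 9 genes stay inside the limit, while 7 different genes of the other lists lie below -1 and 3 above 1 (Ube2l6 appears in 2 lists).

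Markers of immune cells, which carry high levels of several of these genes, were near 0, with exceptions. The leukocyte gene Ptprc had 0.062 FPKM with Nutlin-3a and was listed at 0 with DMSO. Of 7 macrophage markers listed, 2 had a mean of at least 1 FPKM, Cd14 (3.03 against 4.48 FPKM) and Cd68 (6.52 against 2.91 FPKM). Of 6 lymphocyte markers listed, Cd79a alone did so (6.39 against 0.079 FPKM), and the other 5 were at 0 in DMSO. Of 5 dendritic cell markers, Bst2 and Zbtb46 (2.15 against 1.33 FPKM) did. Under that mean, the macrophage marker Lyz2 had 0.671 against 0.0507 FPKM, and the dendritic cell marker Itgax 0.695 against 0.0188 FPKM. All 9 fibroblast markers were compared, and they summed to 2427 FPKM under Nutlin-3a and 5212 FPKM under DMSO, with 5 at least 2-fold lower, where 6.14% of all genes compared were. These 5 were the collagen genes Col1a1, Col1a2 and Col3a1, the receptor gene Pdgfra and the vimentin gene Vim, with ratios from -1.68 to -1.42. Vim alone had 1181 against 3169 FPKM, a large part of both sums. Thy1 (-0.87), Pdgfrb (-0.74) and Fn1 (-0.26) were lower inside the limit. Dlk1, the 1 marker above 0, had 623 against 513 FPKM (0.28). Of 6 mature adipocyte markers listed, 2 were compared, the fatty acid carrier gene Fabp4 at 8.65 against 42.0 FPKM (-2.16) and the lipase gene Lipe at 2.53 against 3.6 FPKM (-0.38). The other 4 had a mean under 1 FPKM, among them Adipoq at 0.84 against 0.0409 FPKM, and Plin1 and Lep at 0 in DMSO. The 3 endothelial markers listed were all under a mean of 1 FPKM. Pecam1 had 1.57 against 0.026 FPKM and Tek 0.102 against 0.148 FPKM, and Kdr had 0.0459 FPKM with Nutlin-3a and 0 with DMSO. The part of other cell types in the ratios of the 9 genes was not tested beyond these values. In bulk RNA, fewer cells of a type and less RNA per cell cannot be told apart.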

How the data were processed

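RNA sequencing of 3T3-L1 cells gave 4 libraries in 2 groups of 2, Nutlin-3a and DMSO, grouped by the sample titles. Per the submitters' processing notes, TopHat2 2.0.11 and the build mm10 were used. How FPKM was computed, on which annotation, and how replicates were combined is not given in the sources used here. In the authors' deposited table there were 24746 transcripts with 1 FPKM value per group, read as Nutlin-3a (NUT) and DMSO (DSM) per the file headers. A further pair of deposited columns held log2 of the same FPKM and was not used. Another 4294 lines were blank. Listed starts count from 0 and are printed from 1.

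FPKM was summed per symbol, 1 was added as pseudocount, and log2 ratios were taken over genes with a mean of at least 1 FPKM, with a limit of 2-fold (Python 3.11.15, pandas 2.3.3). The limma fits planned for per-library values could not be run on 1 value per group. The calculation was tested on simulated data. GC content came from the longest GENCODE M21 transcript of a symbol (96.2% of genes compared). The depth of each library is unknown. Of low values, 22.1% in Nutlin-3a and 22.8% in DMSO lay within 0.1 of whole multiples of the commonest step. This check could not settle depth, because shares of about this size arise without any step. It also used GENCODE lengths, and those behind the authors' FPKM are not known. The 9 genes and the lists were chosen with earlier results of these data known. Some genes of the lists are not reported here and entered no count of a list. From each pathway list the text names the genes past the limit and, where these are fewer than 4, the largest ratios up to 4. Outside this rule are Ifnb1, Irf4, Irf8, Herc6, Traf3, Pias2, Isg20l2, Ifitm3, Irgm1, the Ifit and Gbp genes, the cell type markers and the neighbours. These were named after their values were seen.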

Additional observations from a re-analysis of the deposited data

How the results depend on the processing

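The 9 ratios were recomputed under 11 alternatives: pseudocounts of 0.1, 0.5, 5 and none (the last chosen after seeing the data), no filter, a mean of at least 5 FPKM, upper-quartile scaling, quantile normalization, centring on the median, a correction for GC content, and the transcript with the highest mean. Of 97 values, 93 kept their direction and their side of the 2-fold limit. After the correction for GC content Irf3 was 0.0312 and Irf5 0.0047, so 4 genes in place of 2 were above 0. Of the 9935 genes with that correction, 45% were below 0. Irf7 passed the limit with a pseudocount of 0.1 (-1.08) and with none (-1.12), which made 1 gene past it in place of 0. With none, 1039 of all 10331 genes compared were at least 2-fold higher and 883 lower. With a limit of 1.5-fold there were 2, Irf7 and Ifit1, where 33% of all genes compared passed. With 3-fold there were 0, where 201 of all 10331 genes compared were higher and 154 lower. Under a minimum of 5 FPKM Irf5 and Irf7 were left out. The median ratio of the 9 stayed between -0.25 and -0.13. With a pseudocount of 0.1, the 99 other pathway genes had 7 at least 2-fold higher in place of 3, and 10 lower in place of 7. Of all 10331 genes compared, 998 were higher and 845 lower at that pseudocount. Centring on the median gave 3 pathway genes higher and 10 lower, where 596 and 729 of all genes compared were. Leaving out each replicate was not run, because the table holds no value per library. No paired analysis was possible because the table gives 1 value per group. Depth is unknown, so no interval can be given for genes of a few FPKM such as Irf5 and Irf7.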
